A study of Homo sapiens with 6 samples.

Results

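The 37 genes described here encode proteins of the Fanconi anaemia pathway and of homologous recombination. They were chosen by name, as pathway members, with earlier results of these data known. The counts of genes given below therefore describe the list and are no independent test of it. The genes were looked up by symbol among the 62700 gene IDs of each count table. All 37 were found and all 37 passed the filter on low counts. Transcripts were counted by RNA sequencing in OVCAR8, an established human ovarian carcinoma cell line labelled wild type. The tested group received leptin, an adipocyte hormone, at 100 ng/ml for 24 h, and the control group received PBS (3 libraries each). Cells of both groups had been kept without serum overnight beforehand, so the controls are starved cells as well. The study looked for transcripts through which leptin keeps ovarian cancer cells stem-like. Nothing in the labels ties the replicates to separate cultures. The p-values therefore reflect only how far these 6 libraries vary, and that variation may be technical.

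The Fanconi anaemia pathway repairs crosslinks between the strands of DNA. A core complex of several FANC proteins acts with the ubiquitin-conjugating enzyme UBE2T to attach ubiquitin to the FANCD2-FANCI pair, which then directs nucleases to the lesion. The resulting break is repaired by homologous recombination: its ends are resected, BRCA1, PALB2 and BRCA2 act on the resected DNA, and the missing sequence is copied from the sister chromatid. Loss of this pathway is common in high-grade serous ovarian carcinoma and sensitises cells to platinum drugs and PARP inhibitors, and many of its genes are transcribed mainly around S phase. OVCAR8 is known as a line with a methylated BRCA1 promoter; methylation was not measured here.

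Total counts per library lay between 15609425 and 18577775, and the 37 genes had between 22 and 1971 counts each in a library. On the first principal component of all tested genes (49.7% of the variance), leptin replicates 1, 2 and 3 stood at -2.14, 46.3 and 39.6. The controls stood between -31.0 and -23.6, so on this component leptin replicate 1 lay between the controls and the remaining leptin libraries. On the second component (18.6%) leptin replicate 1 stood apart at -40. Leptin replicates 2 and 3 were there at 19.6 and -6.12, and the controls between 5.95 and 12.9. Of 13 ovarian carcinoma and epithelial markers, 11 were tested. FOLR1 and CLDN3 rose and KRT19 fell in edgeR's test, where 4.09% of all tested genes fell and 5.71% rose. Log2 fold changes were positive for 8 of the 11 (median 0.31) and for 7970 of all 15685 tested genes. The 13 markers summed to 3656 to 4045 CPM (counts scaled to library size) with leptin and 3268 to 3554 CPM in controls. PAX8, a transcription factor of Müllerian epithelium, averaged 363 CPM with leptin and 364 CPM in controls, while MUC16 and MSLN were too low to test. Of 8 immune cell markers, 4 (PTPRC, CD3E, CD3D and MS4A1) had 0 counts in every library. The summed counts of all 8 were 2 to 4 per leptin library and 1 to 5 per control library. The 5 endothelial markers summed to 1.94 to 2.99 CPM with leptin and 3.16 to 3.97 CPM in controls. The 7 fibroblast markers summed to 357 to 520 CPM with leptin and 460 to 656 CPM in controls. The part of these markers in the results below was not tested.

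Part of the pathway was lower after leptin, and no gene of it passed the test as higher. In edgeR's quasi-likelihood test, adjusted over all 15685 tested genes, 11 of the 37 genes fell and 0 rose at an adjusted p under 0.05. Of all tested genes 4.09% fell and 5.71% rose by the same rule, 9.80% in all. The 11 were UBE2T, FANCD2, FANCI, BARD1, BRIP1, BRCA2, RAD54L, RAD54B, RAD51AP1, NBN and EXO1. At an unadjusted p under 0.05 there were 23 lower and 1 higher, where 12.2% of all tested genes were lower and 15.4% higher. DESeq2 called 14 lower and 0 higher, against 5.79% lower and 8.77% higher of the 14646 genes to which it gave an adjusted p. Limma-voom called 9 lower and 0 higher, against 3.95% and 4.51% of all tested genes. A negative log2 fold change was found for 32 of the 37 genes, and the median was -0.41, against 0.01 for all tested genes. All 3 leptin libraries lay below all 3 controls for 20 of the 37 genes, where 16.1% of all tested genes did so. They lay above all 3 controls for MUS81 alone, where 16.0% of all tested genes did so. In bulk RNA, fewer cells that express a gene and less RNA per cell cannot be told apart.

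These calls depended on single libraries, and so did those over all genes. Without leptin replicate 1, 20 genes fell, the 11 among them, and MUS81 and XRCC3 rose, where 13.5% of all tested genes were lower and 16.0% higher. Without leptin replicate 2, 6 fell (BRCA1, BRCA2, BRIP1, EXO1, FANCD2 and FANCI) and 0 rose, against 2.32% lower and 2.52% higher of all genes. BRIP1 and FANCI alone fell without leptin replicate 3, against 0.748% lower and 0.909% higher, and without Control replicate 2, against 0.946% lower and 1.30% higher. BRIP1 alone fell without Control replicate 3, against 0.548% lower and 0.499% higher. Without Control replicate 1, 0 of the 37 passed edgeR's test, with 20 lower and 0 higher at an unadjusted p under 0.05, and 0.371% of all genes were lower and 0.340% higher. The median log2 fold change of the 37 genes stayed between -0.44 and -0.35 in these 6 fits. Each of these fits has 1 library fewer.

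**Figure D1:**
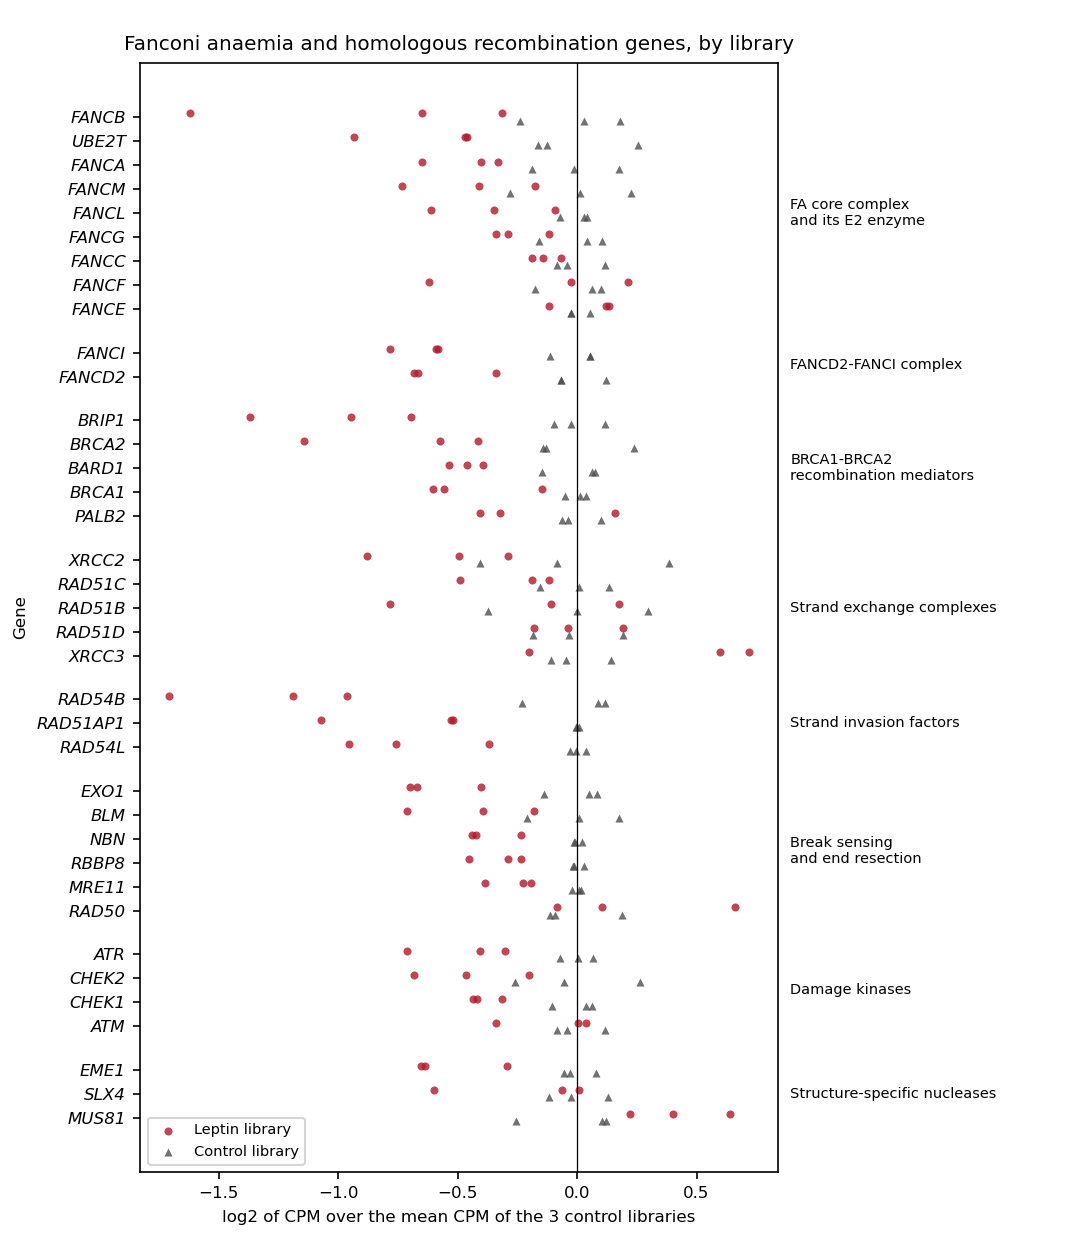
Expression of the 37 genes in each library, as the log2 of CPM over the mean CPM of the 3 controls (x axis), with genes grouped by role (y axis). Circles are leptin libraries and triangles control libraries; the leptin circles lie wholly left of the control triangles for 20 genes and wholly right of them for MUS81.

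Within the core complex, the ubiquitin ligase of the pathway, 1 of 9 genes fell, UBE2T, the gene of its partner enzyme. Which core gene passed depended on the method: DESeq2 called UBE2T and FANCA lower (adjusted p = 0.0197 and 0.0414), limma-voom called 0 of the 9 (UBE2T 0.0523), with 4 of the 9 lower and 0 higher at an unadjusted edgeR p under 0.05, and with the GC trend removed FANCA passed (edgeR adjusted p = 0.0420) and UBE2T did not (0.129). UBE2T had 18.6, 13.4 and 18.5 CPM in leptin replicates 1, 2 and 3, against 22.8, 23.4 and 30.6 CPM in control replicates 1, 2 and 3. Every leptin library lay below every control, with leptin replicate 2 the lowest (log2 fold change -0.60 ± 0.17 SE, edgeR adjusted p = 0.0458). FANCB, FANCA and FANCL, the last of which is the catalytic subunit, also had all leptin libraries below all controls but did not pass. FANCB averaged 4.94 ± 2.04 CPM with leptin and 8.38 ± 1.20 CPM in controls (SD, n = 3 each; log2 fold change -0.77 ± 0.28, edgeR adjusted p = 0.110). FANCA, which pairs with FANCG, averaged 25.4 ± 2.85 CPM with leptin and 34.9 ± 4.4 CPM in controls (log2 fold change -0.46 ± 0.14, edgeR adjusted p = 0.0572).

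The other core subunits overlapped between the groups. FANCG, the most abundant of them, had 72.7, 64.7 and 62.4 CPM with leptin, against 70.7, 81.3 and 84.9 CPM in controls (log2 fold change -0.25 ± 0.12, edgeR adjusted p = 0.192). FANCC, FANCE and FANCF form a module that contacts FANCD2, and their log2 fold changes were -0.13, 0.05 and -0.10. FANCM, a translocase that anchors the complex to DNA, was among the lowest, at 3.82 ± 0.728 CPM with leptin and 5.12 ± 0.887 CPM in controls (edgeR adjusted p = 0.278). Over the 9 genes the median log2 fold change was -0.33.

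Both genes of the FANCD2-FANCI pair, the substrate of the core complex, fell. FANCI had 46.8, 46.6 and 40.8 CPM with leptin, against 72.8, 64.8 and 73.0 CPM in controls. The groups were well apart, with a log2 fold change of -0.65 ± 0.11, or 0.638 of the control level (edgeR adjusted p = 0.00803). FANCD2 had 34.6, 43.4 and 34.2 CPM with leptin, against 52.5, 52.5 and 59.8 CPM in controls (log2 fold change -0.56 ± 0.13, edgeR adjusted p = 0.0227). FANCI occupies chromosome 15 from 89243945 to 89317261 on the plus strand (hg38). Its highest adjusted p when 1 library was left out was 0.0699, without Control replicate 1, and that of FANCD2 was 0.133, without Control replicate 3.

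Of the 5 genes of BRCA1, BRCA2 and their partners, BRIP1, BRCA2 and BARD1 fell. BRIP1, a helicase bound to BRCA1, had 18.2, 15.3 and 11.4 CPM with leptin, against 28.99, 32.0 and 27.6 CPM in controls. Its level with leptin was 0.508 of the control level (log2 fold change -0.98 ± 0.17, edgeR adjusted p = 0.00827), and it passed in 5 of the 6 fits with 1 library left out, the exception being Control replicate 1 (0.0603). BRIP1 occupies chromosome 17 from 61679139 to 61863559 on the minus strand (hg38). BRCA2, a mediator of strand exchange, had 17.8, 19.9 and 12.0 CPM with leptin, against 24.1, 24.3 and 31.4 CPM in controls, with leptin replicate 3 the lowest of all (log2 fold change -0.68 ± 0.19, edgeR adjusted p = 0.0443). BARD1, the obligate partner of BRCA1, had 22.04, 21.1 and 19.97 CPM with leptin, against 30.2, 26.2 and 30.6 CPM in controls, a tight and separate pair of groups (log2 fold change -0.46 ± 0.12, edgeR adjusted p = 0.0382).

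BRCA1 itself did not pass. It had 53.6, 73.4 and 55.4 CPM with leptin, against 78.6, 82.1 and 83.6 CPM in controls, so leptin replicate 2 came close to the controls without reaching them (log2 fold change -0.42 ± 0.13, edgeR adjusted p = 0.0650). DESeq2 called it lower (adjusted p = 0.0373). Per length of its exons BRCA1 averaged 17.1 TPM (a level scaled to transcript length and library size) with leptin and 23.6 TPM in controls. On that scale it was the sixth most abundant of the 37 genes in controls, after FANCG, UBE2T, RBBP8, MUS81 and CHEK1. These lengths join all annotated exons of a gene, so the order is approximate. PALB2, the bridge between BRCA1 and BRCA2, overlapped between the groups, at 9.32, 13.8 and 9.90 CPM with leptin and 11.8, 12.0 and 13.2 CPM in controls (edgeR adjusted p = 0.576).

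RAD51B, RAD51C, RAD51D, XRCC2 and XRCC3, whose products form small complexes that assist strand exchange, had overlapping groups in all 5 genes. With edgeR, DESeq2 and limma-voom 0 of the 5 passed, and at an unadjusted edgeR p under 0.05 there were 1 lower (XRCC2) and 0 higher. RAD51D had 14.38, 16.88 and 13.04 CPM with leptin, against 14.42, 16.86 and 13 CPM in controls, a log2 fold change of 0.00 ± 0.16. RAD51C averaged 34.7 ± 4.56 CPM with leptin and 41.5 ± 4.10 CPM in controls (log2 fold change -0.26 ± 0.13, edgeR adjusted p = 0.234). XRCC2 averaged 7.15 ± 1.43 CPM with leptin and 10.4 ± 2.90 CPM in controls, and the wide control spread came from Control replicate 1 at 13.5 CPM (edgeR adjusted p = 0.155). RAD51B was low in both groups, at 4.30 and 4.89 CPM. XRCC3 had 29.6, 55.9 and 51.5 CPM with leptin, against 31.5, 32.9 and 37.6 CPM in controls, so leptin replicate 1 lay below the controls and the other leptin libraries above them (edgeR adjusted p = 0.197). The median log2 fold change of these 5 genes was -0.18. The difference between them and the other roles was not tested.

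All 3 genes of proteins that promote strand invasion, RAD54L, RAD54B and RAD51AP1, fell. RAD54B, a translocase related to RAD54L, had the steepest fall of the 37, to 2.19, 1.87 and 1.30 CPM with leptin, against 3.63, 4.53 and 4.61 CPM in controls. These values rest on 22 to 38 counts per leptin library and 69 to 77 per control library (log2 fold change -1.25 ± 0.28, edgeR adjusted p = 0.0225). Most of its exon sequence could not contribute, as given below. RAD54L, the motor that drives strand invasion, had 16.5, 12.5 and 10.96 CPM with leptin, against 21.8, 20.8 and 21.1 CPM in controls (log2 fold change -0.67 ± 0.16, edgeR adjusted p = 0.0269). RAD51AP1, which stimulates the joining of DNA strands, had 8.23, 8.27 and 5.63 CPM with leptin, against 11.8, 11.9 and 11.8 CPM in controls. Its controls were nearly identical, and leptin replicate 3 lay furthest from them (log2 fold change -0.68 ± 0.18, edgeR adjusted p = 0.0396). RAD54L and RAD51AP1 reached their highest adjusted p without Control replicate 1, at 0.138 and 0.159, and RAD54B without Control replicate 3, at 0.114.

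Among 6 genes of break sensing and end resection, EXO1 and NBN fell. DESeq2 called 2 of the 6 lower, and limma-voom called EXO1 alone (limma-voom adjusted p of NBN = 0.0509), with 0 higher in both. With the GC trend removed 0 of the 6 passed edgeR's test. At an unadjusted edgeR p under 0.05, 5 were lower and 0 higher. EXO1, a long-range resection nuclease, had 10.5, 12.7 and 10.3 CPM with leptin, against 17.7, 15.2 and 17.3 CPM in controls (log2 fold change -0.59 ± 0.15, edgeR adjusted p = 0.0336). NBN, of the MRE11-RAD50-NBN complex, had 88.8, 77.0 and 77.9 CPM with leptin, against 104, 104 and 106 CPM in controls. The controls lay close together and every leptin library was below them; the change was small and just passed (log2 fold change -0.36 ± 0.10, edgeR adjusted p = 0.0494). The nuclease gene MRE11 and RBBP8, whose product CtIP starts resection, had all leptin libraries below all controls without passing. RBBP8 had 41.1, 47.8 and 46.0 CPM with leptin, against 55.8, 55.6 and 57.4 CPM in controls (edgeR adjusted p = 0.0746), and the adjusted p of MRE11 was 0.163. The helicase gene BLM averaged 10.00 ± 1.82 CPM with leptin and 13.3 ± 1.76 CPM in controls (edgeR adjusted p = 0.159). RAD50 averaged 6.94 ± 1.95 CPM with leptin and 5.77 ± 0.692 CPM in controls, with the groups overlapping.

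None of the 4 damage kinases passed edgeR's test, though 2 of them were separated between the groups; DESeq2 called 1 of the 4, ATR, lower, and limma-voom called 0. At an unadjusted p under 0.05 edgeR gave 3 lower and 0 higher. ATR, which responds to single-stranded DNA at stalled forks, had 20.7, 19.3 and 15.6 CPM with leptin, against 25.6, 26.7 and 24.3 CPM in controls (log2 fold change -0.46 ± 0.14, edgeR adjusted p = 0.0553). Its effector kinase CHEK1 had 26.4, 24.5 and 24.3 CPM with leptin, against 33.7, 30.5 and 34.3 CPM in controls (log2 fold change -0.39 ± 0.11, edgeR adjusted p = 0.0538). Both genes lay below every control in every leptin library. ATM, which responds to double-strand breaks, overlapped, at 50.3, 51.4 and 39.6 CPM with leptin and 47.4, 54.4 and 48.8 CPM in controls (log2 fold change -0.09 ± 0.13, edgeR adjusted p = 0.686). Its effector CHEK2 averaged 7.68 ± 1.29 CPM with leptin and 10.4 ± 1.92 CPM in controls (edgeR adjusted p = 0.175).

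Of the 3 genes of structure-specific nucleases, 0 passed edgeR's test, DESeq2 or limma-voom. At an unadjusted edgeR p under 0.05, 1 was lower and 1 higher. MUS81 had 53.5, 60.6 and 71.5 CPM with leptin, against 38.4, 49.9 and 49.4 CPM in controls (log2 fold change 0.43 ± 0.14, edgeR adjusted p = 0.0757). EME1, whose product is the partner that MUS81 needs to cut branched DNA, had 8.98, 7.07 and 6.99 CPM with leptin, against 10.8, 10.6 and 11.6 CPM in controls (log2 fold change -0.52 ± 0.17, edgeR adjusted p = 0.0727). The partners thus lay on opposite sides of their controls, each without overlap. With the GC trend removed the log2 fold change of MUS81 was 0.30 and that of EME1 -0.50 (edgeR adjusted p = 0.200 and 0.0950). SLX4, the scaffold that holds these nucleases, had log2 fold change -0.19 ± 0.16 with overlapping groups (edgeR adjusted p = 0.488).

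**Figure D2:**
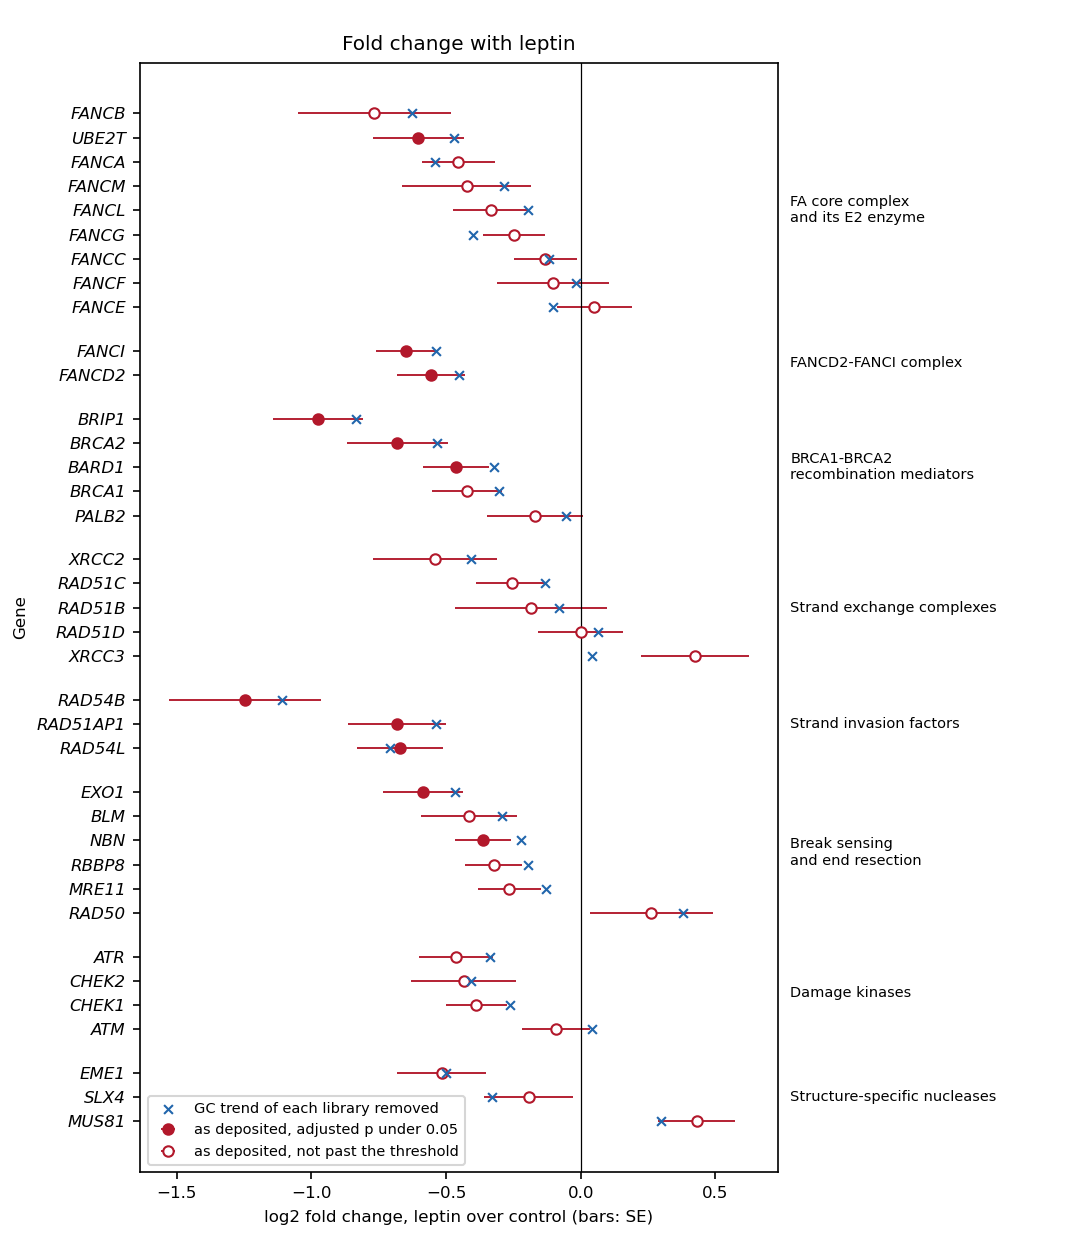
Log2 fold change of leptin over control (x axis; bars are SE) for the 37 genes grouped by role (y axis), with filled circles for genes past the threshold and open circles for the others. Crosses give the same genes after the GC trend of each library was removed; they lie nearer to 0 for most of the genes past the threshold and at 0.04 for XRCC3.

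The fold changes followed the base composition of the transcripts. Set against the GC content of the longest transcript, the log2 fold changes gave a Spearman's rho of 0.52 over the 37 genes and 0.39 over 15249 tested genes, which share libraries and are not independent. In the quintile of tested genes with least GC (27.9% to 41.0%), 7.28% of all genes fell, and so did 7 of the 15 pathway genes there. In the next quintile 6.16% of all genes and 3 of 11 pathway genes fell. In the 3 quintiles with more GC, 4.36%, 2.46% and 0.59% of all genes fell, in rising order of GC. Of the pathway genes there 1 of 11 fell, RAD54L (53.1% GC). All 3 leptin libraries lay below all 3 controls for 27.5% and 23.3% of all genes in the 2 quintiles with least GC. Of the pathway genes in those quintiles 12 of 15 and 5 of 11 did so. In the quintiles with more GC the shares of all genes were 17.0%, 10.6% and 3.7%. The pathway genes there gave 1 of 4, 2 of 5 and 0 of 2. After each library's GC trend had been removed, 5 of the 37 genes were lower and 0 higher, where 2.81% of all tested genes were lower and 2.72% higher. The 5 were BRIP1, FANCI, RAD54L, RAD54B and FANCA, the last of which had not passed before. With that trend removed 17 of the 37 were lower and 1 higher at an unadjusted p under 0.05, where 10.8% of all tested genes were lower and 12.4% higher. The median log2 fold change of the 37 genes was then -0.30, with 32 of them still negative, and that of XRCC3 was 0.04, against 0.42 before.

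**Figure D3:**
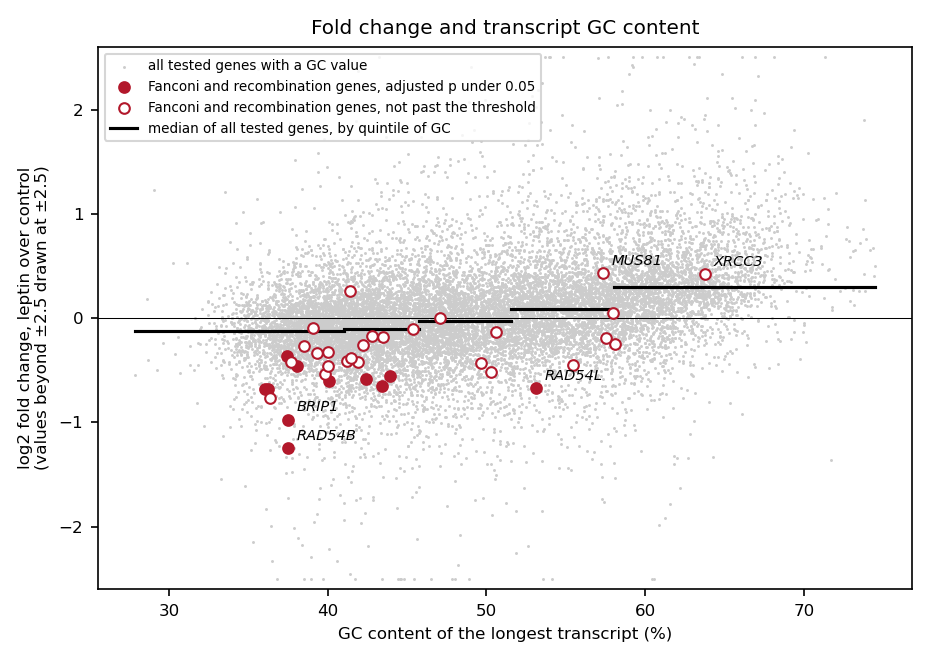
Log2 fold change of leptin over control (y axis) against the GC content of the longest transcript in percent (x axis). Grey dots are tested genes, black lines their medians in quintiles of GC, and circles the 37 genes (filled where past the threshold); 10 of the 11 filled circles lie in the 2 quintiles with least GC.

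The promoters of the genes that fell are shown so that their sequence can be read beside the values, since several genes of this pathway are known targets of E2F factors, which switch on S-phase transcription. RefSeq promoters (GRCh38.p14; 250 bases before to 50 after each start) were found for 34 of the 37 genes, 45 promoters in all, and for 8 of the 11 genes that fell. These 8 are given at the first listed start. The sequences run 5′ to 3′ on the gene's strand, from 120 bases before the start to 20 bases after its first base, with matches to the words named in the next paragraph in capitals.
UBE2T, chr1:202341916-202342056, minus strand: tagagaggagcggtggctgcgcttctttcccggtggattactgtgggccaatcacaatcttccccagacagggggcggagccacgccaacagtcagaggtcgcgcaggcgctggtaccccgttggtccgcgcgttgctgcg
FANCD2, chr3:10026317-10026457, plus strand: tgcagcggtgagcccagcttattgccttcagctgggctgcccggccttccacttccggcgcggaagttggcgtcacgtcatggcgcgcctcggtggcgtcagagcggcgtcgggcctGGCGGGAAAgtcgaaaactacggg
BARD1, chr2:214809663-214809803, minus strand: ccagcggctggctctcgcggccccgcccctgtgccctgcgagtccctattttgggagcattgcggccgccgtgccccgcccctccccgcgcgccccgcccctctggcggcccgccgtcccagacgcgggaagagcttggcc
BRIP1, chr17:61863508-61863648, minus strand: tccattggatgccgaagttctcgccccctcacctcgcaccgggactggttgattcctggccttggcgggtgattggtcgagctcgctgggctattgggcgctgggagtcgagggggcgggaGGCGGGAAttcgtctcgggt
BRCA2, chr13:32315388-32315528, plus strand: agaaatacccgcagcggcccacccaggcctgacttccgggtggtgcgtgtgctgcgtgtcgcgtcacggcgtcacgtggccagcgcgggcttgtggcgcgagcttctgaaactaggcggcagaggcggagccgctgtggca
RAD54L, chr1:46247568-46247708, plus strand: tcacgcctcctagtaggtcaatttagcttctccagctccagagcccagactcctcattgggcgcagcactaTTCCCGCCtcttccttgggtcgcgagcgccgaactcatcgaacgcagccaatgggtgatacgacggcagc
RAD51AP1, chr12:4538770-4538910, plus strand: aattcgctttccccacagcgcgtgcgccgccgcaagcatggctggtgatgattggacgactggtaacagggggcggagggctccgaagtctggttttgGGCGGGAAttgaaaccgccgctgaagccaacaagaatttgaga
EXO1, chr1:241848084-241848224, plus strand: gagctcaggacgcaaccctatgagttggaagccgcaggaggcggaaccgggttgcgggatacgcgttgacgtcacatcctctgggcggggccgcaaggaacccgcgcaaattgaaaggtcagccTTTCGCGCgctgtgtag

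Both strands were searched for the E2F words TTTCCCGC, TTTGGCGC, TTTGCCGC and TTTCGCGC. At least 1 of these was present in 5 of the 45 promoters (11.1%), against 4.8% of the promoters of tested genes and 3.32% of all 35097 promoters. Among genes that fell, FANCD2 and EXO1 held one, 2 of 8 genes, and among genes that did not pass 3 of 26 did. For comparison, 17 of 34 promoters of DNA replication genes and 3 of 28 of mitotic genes held one. A further word, GGCGGGAA, overlaps the reverse complement of TTTCCCGC and was picked from these promoters after they had been read, so its frequency in them is no result. It marks the capitals in BRIP1, RAD54L and RAD51AP1, overlaps the E2F word in FANCD2, and occurs in 4.62% of the promoters of tested genes and 3.15% of all promoters. UBE2T, BARD1 and BRCA2 held none of these words. The words TTTGAA and TTCGAA, known from promoters of mitotic genes, were in 4 of the 45 promoters (8.89%), in 20 of 28 promoters of mitotic genes, in 11.8% of the promoters of tested genes and in 16.4% of all promoters. A match is a description of the sequence, and no binding was measured.

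Further genes of the pathway fell as well. Of 43 tested genes on a list of other Fanconi and recombination genes, 9 fell and 0 rose in edgeR's test, and the median log2 fold change was -0.21. Of all tested genes 4.09% fell and 5.71% rose by that test. DESeq2 and limma-voom called 10 and 8 lower and 0 higher, where 5.79% and 3.95% of the genes they tested were lower. At an unadjusted edgeR p under 0.05, 16 were lower and 2 higher, where 12.2% and 15.4% of all tested genes were. With the GC trend removed 3 of the 43 were lower and 0 higher, where 2.81% and 2.72% of all tested genes were. The median of the 43 was then -0.12. POLQ, the polymerase of the alternative end-joining route, fell to 11.4 ± 2.35 CPM with leptin, against 21.4 ± 2.25 CPM in controls (edgeR adjusted p = 0.0107). RPA1 and RPA3, subunits of the single-strand binding complex, fell as well, and so did the Holliday junction nuclease gene GEN1. RADX, a single-strand binding protein that acts at replication forks, had only 9, 2 and 9 counts in leptin replicates 1, 2 and 3, against 37, 29 and 32 in control replicates 1, 2 and 3 (edgeR adjusted p = 0.0176). PARPBP also passed.

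Signalling from stalled forks was represented by a list of 20 checkpoint mediators, of which 4 fell and 0 rose. Of all tested genes 4.09% fell and 5.71% rose by edgeR's test. DESeq2 and limma-voom called 6 and 4 of the 20 lower and 0 higher, where 5.79% and 3.95% of the genes they tested were lower. At an unadjusted edgeR p under 0.05, 9 were lower and 1 higher, where 12.2% and 15.4% of all tested genes were. With the GC trend removed 3 of the 20 were lower and 0 higher, where 2.81% and 2.72% of all tested genes were. CLSPN, the adaptor through which ATR activates CHEK1, had 24.3, 23.0 and 19.6 CPM with leptin, against 41.7, 43.2 and 50.4 CPM in controls. Its groups were far apart, and it passed in all 6 fits with 1 library left out (log2 fold change -1.02 ± 0.13, edgeR adjusted p = 0.00298). TOPBP1, which activates ATR, and the fork protection pair TIMELESS and TIPIN were the other 3. TP53BP1, which restrains resection, averaged 67.9 ± 8.98 CPM with leptin and 86.6 ± 9.96 CPM in controls (edgeR adjusted p = 0.112).

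Genes of other processes were read for comparison. Of 30 DNA replication genes 21 fell and 0 rose, and of 25 tested mitotic genes 19 fell and 0 rose, with a median log2 fold change of -0.68 on both lists. Of all tested genes 4.09% fell and 5.71% rose by edgeR's test. With the GC trend removed 19 replication genes and 17 mitotic genes were lower and 0 higher, where 5 of the 37 genes were lower. Leptin replicates 1, 2 and 3 had median log2 differences from the control mean of -0.50, -0.77 and -0.71 for replication genes and -0.42, -0.86 and -0.84 for mitotic genes. For the 37 genes the medians were -0.33, -0.30 and -0.46. Leptin replicate 1 thus lay nearest to the controls on the replication and mitosis lists. For the 37 genes the medians of leptin replicates 1 and 2 were too close to order. The SD of the 3 leptin medians there was 0.083. The part of cell cycle genes in the pathway's change was not tested. Of 10 end-joining genes edgeR called 1 lower, XRCC4, and 0 higher. DESeq2 called 3 of them lower and 0 higher, where 5.79% and 8.77% of the genes to which it gave an adjusted p were. Limma-voom called 0 lower and 0 higher, where 3.95% and 4.51% of all tested genes were. At an unadjusted edgeR p under 0.05, 4 end-joining genes were lower and 1 higher, where 12.2% and 15.4% of all tested genes were. Of 7 mismatch repair genes and 16 nucleotide excision repair genes, edgeR, DESeq2 and limma-voom called 0 lower and 0 higher. At an unadjusted edgeR p under 0.05, 2 mismatch repair genes were lower and 0 higher, and 1 nucleotide excision repair gene was lower and 2 higher. The shares of all tested genes were again 12.2% and 15.4%. Median log2 fold changes were -0.26 for end joining, -0.27 for mismatch repair and -0.02 for nucleotide excision repair. All 7 mismatch repair genes had a negative log2 fold change.

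**Figure D4:**
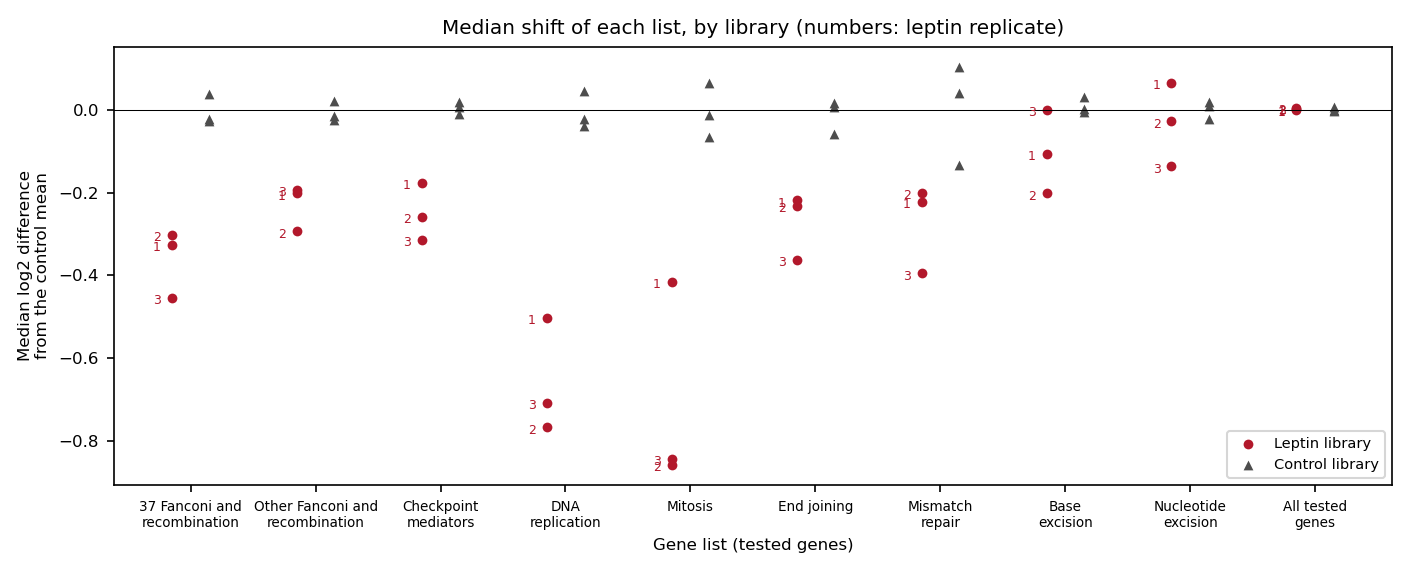
Median log2 difference from the control mean over the tested genes of each list (y axis), by list (x axis). Red circles are leptin libraries, numbered by replicate, and grey triangles control libraries; for the 37 genes the leptin libraries lie at -0.33, -0.30 and -0.46 and the controls at -0.03, -0.02 and 0.04.

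Overlapping genes limit some of these values. Reads were counted without strand, and pairs lying over exons of more than 1 gene were left out. Exons of 27 of the 37 genes overlap those of another gene, for 24 of them on the opposite strand. More than 50% of the exon bases are overlapped in 3 genes, RAD50 (76.9%), XRCC3 (76.7%, by KLC1 on the opposite strand) and RAD54B (66.0%, by FSBP), so their counts come from the remaining bases. In the other 34 genes the overlap is at most 19.9%. For EME1, MUS81 and CHEK1 it is 16.4%, 14.1% and 13.4%, and an overlapping gene had several times their counts. Whether reads of such a gene entered their counts was not tested.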

How the data were processed

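RNA sequencing libraries of OVCAR8 cells were made with a directional kit and sequenced as read pairs, per the labels' protocols. The deposited tables hold raw counts of fragments per gene, which the authors made with featureCounts 2.0.1 on exons of GENCODE release 44, per the file headers; no option for strand, multi-mapping or overlapping features was set. The submitters' processing notes name HISAT2 2.0.5, featureCounts 1.5.0-p3, DESeq2 and hg38. Read trimming is not given in the sources used here.

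From these counts, genes were filtered by filterByExpr (minimum count 10, minimum total 15), scaled by TMM and tested with edgeR 4.0.16 (robust quasi-likelihood fit, R 4.3.3), leptin over control, with Benjamini-Hochberg adjustment over 15685 genes and a threshold of 0.05. SE is the log2 fold change's standard error. CPM are TMM-scaled, and TPM use all annotated exon bases. GC content came from the longest GENCODE release 29 transcript. Alternatives were limma 3.58.1 (voom), DESeq2 1.42.0, other scalings and filters, removal of GC or length trends (lowess span 0.3), leaving out each library in turn and a replicate block. Scripts were tested on simulated data. Figures used Python 3.11.15 and matplotlib 3.10.9.

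The 37 genes and all lists were chosen with earlier results of these data known. Library values were given for each gene past the threshold and for at least 1 other gene of each role that did not pass, including the one with the largest mean count. From the comparison lists, up to 6 genes with the smallest adjusted p and TP53BP1 were eligible; 1 gene that the rule also names is not reported here.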

Additional observations from a re-analysis of the deposited data

How the results depend on the processing

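Between 31 and 33 of the 37 genes had a negative log2 fold change under every setting run. Removing the GC trend left 5 genes lower with a median of -0.30; an adjusted p under 0.01 left 2. With the replicate number as a block 7 were lower, where 3.41% of all tested genes were lower and 4.9% higher. With the replicate block and the GC trend removed 4 were lower, with a median of -0.31. Of all tested genes 3.04% were then lower and 2.97% higher. Deviations from the group mean correlated little between same-numbered libraries (r = -0.049, 0.015 and -0.109). Leptin replicate 1 correlated best with Control replicate 3 (0.101). With 3 libraries per group these values cannot show whether same-numbered libraries share a culture or day, which the labels do not say. Without a filter on low counts 2 were higher (MUS81 and XRCC3). Leaving out 1 library gave 0 to 20 lower, 0 to 2 higher and a median of -0.44 to -0.35. The other scalings, filters and tools and the length correction gave 9 to 16 lower. Under those settings the share of all genes called lower ran from 2.92% (no filter) to 5.79% (DESeq2). The share called higher ran from 4.5% (no filter) to 8.77% (DESeq2). Over all tested genes, 641 were lower and 896 higher; the counts were 441 and 427 with the GC trend removed, 126 and 148 at the stricter threshold, 959 and 1478 without a filter, and 60 to 2178 and 55 to 2583 with 1 library left out. Why the calls changed was not tested. Low counts limit RAD54B, FANCM and RAD51B.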

Other observations

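Of 19 tested genes of base excision repair, which removes damaged single bases, 3 fell, PARP2, NEIL3 and UNG, and 1 rose, NTHL1, in edgeR's quasi-likelihood test with Benjamini-Hochberg adjustment. Of all tested genes 4.09% fell and 5.71% rose by that rule, so the single rise is near the background. UNG, the uracil glycosylase, had 77.6, 45.4 and 57.1 CPM with leptin, against 88.0, 92.4 and 94.4 CPM in controls (log2 fold change -0.61 ± 0.17, adjusted p = 0.0430). NTHL1, a glycosylase for oxidised pyrimidines, had 36.5, 54.3 and 56.2 CPM with leptin, against 30.5, 30.5 and 29.4 CPM in controls (log2 fold change 0.70 ± 0.16, adjusted p = 0.0215). With the GC trend removed the log2 fold change of NTHL1 was 0.32 (adjusted p = 0.134). Without Control replicate 3 the adjusted p of UNG was 0.169 and that of NTHL1 was 0.114.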
